A study of Mus musculus with 4 samples.

Results

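The genes described here are the ligands, receptors and feedback genes of the fibroblast growth factor (FGF) and epidermal growth factor (EGF) receptor pathways in the developing mouse pancreas. They were all protein-coding genes of the GENCODE M21 annotation with an FGF, FGF receptor, Sprouty or Spred name, together with 15 genes taken by name: Etv4, Etv5, Dusp6, Egfr, Erbb2, Erbb3, Erbb4, Egf, Tgfa, Areg, Ereg, Hbegf, Btc, Nrg1 and Frs2. The rule took 51 genes of 54532 gene IDs in the data, 21995 of them protein-coding. Of the 51, 35 reached 1 FPKM or more in a stage, and these are called measured below. FPKM is the number of sequenced fragments of a gene, corrected for its exon length and for the size of the library. Shares and ranks between genes are given on this scale, and they depend on the exon length used for each gene.

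RNA was sequenced from fetal pancreas of wild-type C57BL/6 mice at embryonic stages E11.5 and E13.5, and later at E15.5 and E18.5, with 1 labelled sample per stage and no mutant or treated group. The series calls the material pancreatic epithelium. The way of isolation, any pooling of embryos and their sex are not stated in the labels.

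The deposited value of each gene is an average, and in nearly all genes it could be split into whole reads of 2 libraries per stage (99.4% to 99.6% of the genes attempted, and all 51 members). For 710 genes, with Hbegf, Fgf1 and Spry4 among them, the exon length was itself chosen so that reads came out whole. Their split is thus no independent check. A further 485 to 663 genes per stage had too many reads to split and are not among those attempted. The 8 recovered libraries held 6121455 to 9220145 reads in the genes that were split. The labels do not mention these libraries, so p-values measure only the spread between them, which may be technical. Both libraries are given below in the order library 1, library 2, a numbering that does not link stages, after scaling of each stage by a median of ratios. A member counts as higher or lower by size where the stages were 2-fold or more apart on the log2(FPKM + 1) scale with the higher level at 5 FPKM or more. It is said to have risen or fallen where limma, fitted on log2(FPKM + 0.1) of the libraries over 13807 genes, gave an adjusted p under 0.05.

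FGF ligands bind receptor tyrosine kinases encoded by Fgfr1 to Fgfr4, with heparan sulphate or Klotho proteins as coreceptors, and signal through the adaptor Frs2 to Ras and the MAP kinases Erk1 and Erk2. Dusp6, the Sprouty and Spred genes and the ETS factors Etv4 and Etv5 are commonly induced by this signal, and Dusp6, the Sprouty and the Spred proteins damp it. In the mouse, Fgf10 from the pancreatic mesenchyme acts through Fgfr2 on the epithelial progenitors. EGF family ligands bind Egfr, Erbb3 and Erbb4, and Erbb2 is the partner receptor that has no ligand of its own.

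Of the 18 secreted FGF ligands, 9 stood at 1 FPKM or more at E11.5, but 1 did at E13.5, 0 did at E15.5 and 3 did at E18.5. The 4 signalling FGF receptors summed to 8.18 FPKM at E11.5, 24.8 FPKM at E13.5, 13.4 FPKM at E15.5 and 35.3 FPKM at E18.5. The measured feedback and target genes were all lowest at E15.5, 7 of 7, where 4112 of the 14841 genes at 1 FPKM or more had their lowest level. For Spred1, Spred2 and Spry2 the step from E13.5 to E15.5 did not pass the test, so their rank is not set.

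The samples were first checked against markers of the labelled tissue and of other tissues, because the earliest sample stands apart. Pancreatic epithelium and progenitor markers summed to 890 FPKM at E11.5, 2558 FPKM at E13.5, 3280 FPKM at E15.5 and 3957 FPKM at E18.5. In each later stage 12 of 12 reached 1 FPKM, against 9 of 12 at E11.5. Most of the sum in each stage was the epithelial genes Epcam, Krt8 and Krt18, at 294, 197 and 332 FPKM at E11.5. Below 1 FPKM at E11.5 were Ptf1a, Nkx2-2 and Mnx1 (0.603, 0.384 and 0.859 FPKM), while Nkx6-1 was at 1.49 FPKM and Sox9 at 49.5 FPKM. Pdx1, the early pancreatic transcription factor, named after its values were seen, was at 79.0 FPKM at E13.5, against 2.93 FPKM at E11.5. Otic markers summed to 1399 FPKM at E11.5 and 1.24, 0.720 and 1.55 FPKM in the later stages, with Oc90, an otoconial protein, at 0 FPKM at E13.5, against 1251 FPKM at E11.5. The sums of neural markers were 1252, 26.0, 20.1 and 51.2 FPKM over the 4 stages, those of mesenchyme markers 377, 92.1, 79.4 and 192 FPKM, and those of erythroid markers 9564, 225, 179 and 323 FPKM. In the mesenchyme list, Isl1 and Vim, which endocrine and other cells also express, made up most of the sum at E13.5 (40.4 and 43.8 of 92.1 FPKM) and also at E11.5 (129 and 112 of 377 FPKM). The E11.5 sample thus carried markers of several other tissues, and every difference between E13.5 and E11.5 below stands beside these values. In such bulk samples, fewer cells of a type and less RNA per cell cannot be told apart.

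Secreted FGF ligands as a sum were far lower in each later stage than at E11.5. Their sum was 79.4 FPKM at E11.5 (80.1 and 78.7 in the 2 libraries), 2.73 FPKM at E13.5, 3.06 FPKM at E15.5 and 11.2 FPKM at E18.5. Of the 10 measured ligands, 9 fell at E13.5 against E11.5 and 5 of them also passed the rule of size, while Fgf1 did not pass the test. Fgf3, Fgf5, Fgf8, Fgf10, Fgf15, Fgf17 and Fgf20 reached 1 FPKM only at E11.5. They count as measured only through that stage, so the filter favoured their fall and the count of falls is no independent support. The background was high: 36.6% of all genes tested fell and 31.3% rose between these stages, and by size 5.73% were lower and 5.77% higher.

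**Figure D1:**
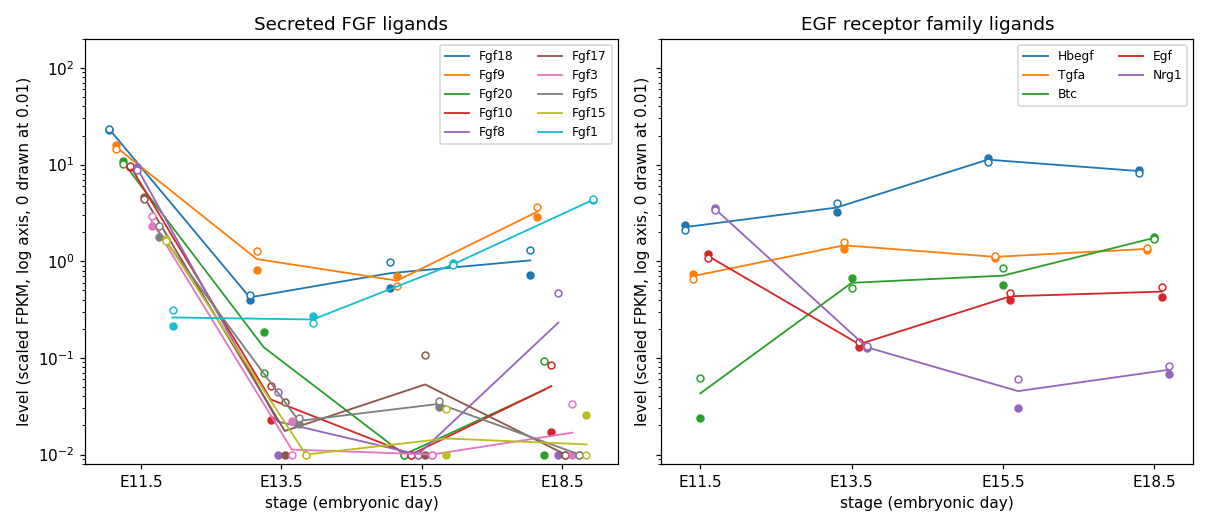
Level of each measured ligand by stage in scaled FPKM on a log axis (0 drawn at 0.01), with filled circles for library 1, open circles for library 2 and lines through their means. Of the 10 FGF ligands, 9 are highest at E11.5 and Fgf1 at E18.5, while Hbegf is the highest EGF family ligand from E13.5 on.

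Fgf18, a ligand known from skeletal and lung development, led at E11.5 with 29.2% of the ligand sum. Its levels were 23.1 and 23.3 FPKM at E11.5, 0.397 and 0.449 FPKM at E13.5, 0.523 and 0.982 FPKM at E15.5 and 0.722 and 1.32 FPKM at E18.5. For Fgf18, E13.5 against E11.5 gave a fall by a log2 difference of -5.48 ± 0.33 (adjusted p = 1.97e-05). The libraries of each stage lay close at E11.5 and up to about 2 times apart at the low later levels. Fgf18 also rose at E18.5 against E13.5, by a log2 difference of 1.05 ± 0.33 (SE), adjusted p = 0.0335. That call was lost without either library of E11.5 or E13.5 or library 2 of E18.5, with an adjusted p of up to 0.158.

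Fgf9, which signals between epithelium and mesenchyme in several organs, was the second ligand at E11.5 and came back to more than 1 FPKM at E18.5. Its levels were 15.9 and 14.4 FPKM at E11.5, 0.821 and 1.29 FPKM at E13.5, 0.701 and 0.559 FPKM at E15.5 and 2.87 and 3.64 FPKM at E18.5. Against E11.5, Fgf9 fell at E13.5 (log2 difference -3.75 ± 0.22, adjusted p = 1.87e-05). Fgf9 rose at E18.5 against E15.5, with a log2 difference of 2.20 ± 0.22 (SE) and an adjusted p of 0.000229. At E15.5 against E13.5 the difference was -0.64 ± 0.22, adjusted p = 0.0507.

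Fgf10, known as a mesenchymal ligand of pancreatic progenitors, was one of the ligands nearly absent from the later samples. Which of the tissues marked at E11.5 held Fgf10 cannot be told from these bulk values. Its levels were 9.43 and 9.68 FPKM at E11.5, 0.0227 and 0.0515 FPKM at E13.5, 0 and 0 FPKM at E15.5 and 0.0169 and 0.0851 FPKM at E18.5. These values rest on 795 and 797 reads at E11.5, and on 2 and 4, 0 and 0, and 1 and 5 reads in the later stages in order. Summed over libraries, Fgf10 was 264-fold lower at E13.5 than at E11.5 (95% exact interval for counting error 121 to 720), and the limma difference was -6.15 ± 0.27 (SE), adjusted p = 5.75e-06.

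Fgf20 and Fgf8 followed the same course at similar levels. Fgf20, a ligand best known from the developing inner ear, kidney and tooth, had 10.8 and 10.1 FPKM at E11.5, 0.187 and 0.0706 FPKM at E13.5, 0 and 0 FPKM at E15.5 and 0 and 0.0933 FPKM at E18.5. Its reads over both libraries numbered 8 at E13.5, against 636 at E11.5, a level 79.0-fold lower at E13.5 (39.9 to 184), with a limma adjusted p of 3.30e-05. The further fall at E15.5 against E13.5 (adjusted p = 0.0426) rests on 8 reads against 0 and was lost when a library of E11.5, library 1 of E13.5 or a library of E15.5 was left out (adjusted p up to 0.191). Exons of Fgf20 overlap those of Micu3 on the opposite strand over 12.0% of their length, and Micu3 stood at 1.37 to 2.35 FPKM in the 4 stages. Fgf8, an organiser signal of brain, limb and heart development, had 9.34 and 8.81 FPKM at E11.5, 0 and 0.0438 FPKM at E13.5, 0 and 0 FPKM at E15.5 and 0 and 0.464 FPKM at E18.5. It had 1 read at E13.5, against 444 at E11.5, a level 441-fold lower at E13.5 (78.8 to 17472.5), and fell with an adjusted p of 0.000387. Its 8 reads at E18.5 were all in library 2.

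The lower ligands Fgf17, Fgf3, Fgf5 and Fgf15 also fell at E13.5 against E11.5, with limma adjusted p from 1.27e-05 to 3.63e-05, but stayed under the 5 FPKM that the rule of size asks for. Fgf17, a relative of Fgf8, had 4.65 and 4.37 FPKM at E11.5, 0 and 0.035 FPKM at E13.5, 0 and 0.106 FPKM at E15.5 and 0 and 0 FPKM at E18.5. Fgf3, a ligand of ear and hindbrain patterning, had 2.3 and 2.93 FPKM at E11.5, 0.0225 and 0 FPKM at E13.5, 0 and 0 FPKM at E15.5 and 0 and 0.0336 FPKM at E18.5. For Fgf17 the ratio was 274-fold lower at E13.5 (48.8 to 10876) and for Fgf3 it was 219-fold lower (38.8 to 8677), each resting on 1 read at E13.5, so the size of these falls is poorly set. Fgf5, known for ending hair growth, had 1.79 and 2.3 FPKM at E11.5, 0.0209 and 0.0237 FPKM at E13.5, 0.031 and 0.0358 FPKM at E15.5 and 0 and 0 FPKM at E18.5, a level 92.0-fold lower at E13.5 (25.1 to 765). Fgf15, which in the adult intestine represses bile acid synthesis, had 1.7 and 1.63 FPKM at E11.5, 0 and 0 FPKM at E13.5, 0 and 0.0293 FPKM at E15.5 and 0.0255 and 0 FPKM at E18.5, with 0 reads at E13.5, against 184 at E11.5, so it was at least 61.0-fold lower at E13.5 (3 reads taken over both libraries). About 24.9% of its exon length is shared with a predicted gene on the opposite strand, and the sources used here do not say whether counting used the strand.

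Fgf1, a broad ligand of all FGF receptors without a signal peptide, ran the other way. Its levels were 0.211 and 0.313 FPKM at E11.5, 0.27 and 0.229 FPKM at E13.5, 0.952 and 0.906 FPKM at E15.5 and 4.32 and 4.36 FPKM at E18.5. For Fgf1, E15.5 against E13.5 gave a rise by a log2 difference of 1.56 ± 0.18 (adjusted p = 0.000622). Against E15.5, Fgf1 rose at E18.5 (log2 difference 2.11 ± 0.18, adjusted p = 0.000104). At E18.5 it made up 38.9% of the ligand sum, ahead of Fgf9 at 29.1%. Fgf1 stayed under 5 FPKM, so it passed no comparison by size. Its values gave whole reads only with an exon length of 4648 bases, shorter than the 5463 bases of GENCODE M21. The ligands that stayed below 1 FPKM in every stage were Fgf2, Fgf4, Fgf6, Fgf7, Fgf16, Fgf21, Fgf22 and Fgf23, the highest of them Fgf16 with 0.973 FPKM and Fgf21 with 0.862 FPKM at E18.5. Fgf7, the other well known mesenchymal ligand of Fgfr2, had 0.204 FPKM at E11.5 and 0.0377 to 0.180 FPKM later.

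The fall of the ligands at E13.5 stood beside the same fall in several marker lists. Of the otic list, 0 of 11 genes reached 1 FPKM at E13.5, against 10 of 11 at E11.5. The mesenchyme list had 4 of 18 at E13.5, against 16 of 18 at E11.5, the neural list 5 of 10 at E13.5, against 8 of 10 at E11.5, and the mesothelium list 1 of 4 at E13.5, against 2 of 4 at E11.5. At E13.5 Oc90, Otx2, Pax2 and Pax8 of the otic list and Tbx18 of the mesenchyme list were at 0. Twist1, a mesenchyme marker named after its values were seen, was at 0.105 FPKM at E13.5, against 14.7 FPKM at E11.5. Other mesenchyme markers differed less, such as Pdgfrb (0.999 FPKM, against 1.04 FPKM) and Barx1 (2.66 FPKM, against 7.43 FPKM). Gap43, a neuronal gene, was at 2.38 FPKM at E13.5, against 520 FPKM at E11.5. Some markers went the other way. Ret of the neural list was at 2.88 FPKM at E13.5, against 0.254 FPKM at E11.5. Msln of the mesothelium list was at 1.28 FPKM, against 0.847 FPKM. The endothelium sum was 14.2 FPKM at E13.5, against 5.48 FPKM at E11.5, most of it Egfl7, while the leukocyte sum was 1.92 FPKM, against 35.7 FPKM. The part of these tissues in the ligand result was not tested.

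**Figure D2:**
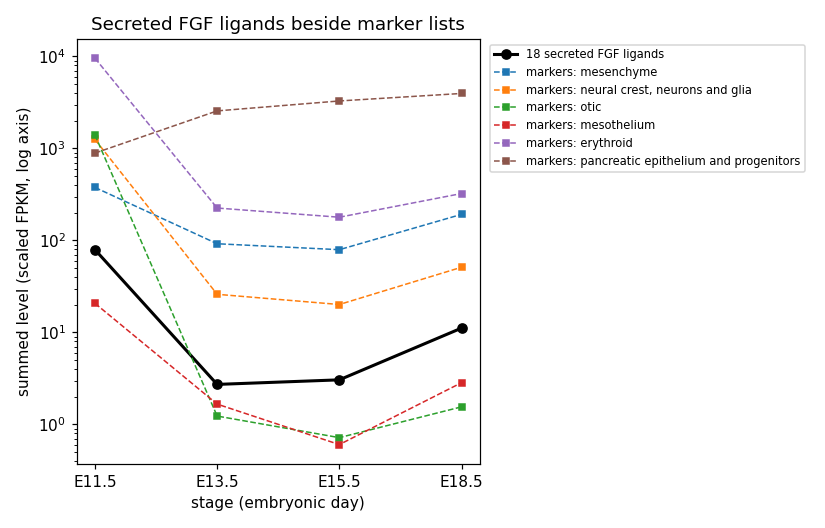
Summed level in scaled FPKM, on a log axis, of the 18 secreted FGF ligands (black) and of marker lists (dashed) in the 4 stages. The ligand sum drops to 2.73 FPKM at E13.5, against 79.4 FPKM at E11.5, together with the otic, neural and erythroid sums, while the pancreatic epithelium sum is higher in each later stage.

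The intracellular FGF-related genes Fgf11 to Fgf14 encode proteins that are not secreted and act mainly on sodium channels and the cytoskeleton in neurons. Fgf13 had 14.1 and 14.3 FPKM at E11.5, 0.286 and 0.324 FPKM at E13.5, 0.155 and 0.111 FPKM at E15.5 and 0.0969 and 0.0389 FPKM at E18.5. Fgf13 fell at E13.5 against E11.5, with a log2 difference of -5.15 ± 0.22 (SE) and an adjusted p of 5.01e-06. It fell again at E15.5 against E13.5, but without either library of E13.5 or library 2 of E15.5 that call was lost (adjusted p 0.0203 with all libraries and up to 0.0871). Fgf12 had 0.669 and 0.639 FPKM at E11.5, 0.27 and 0.191 FPKM at E13.5, 0.325 and 0.231 FPKM at E15.5 and 2.81 and 2.42 FPKM at E18.5, lowest at E13.5 and highest at E18.5. For Fgf12, E13.5 against E11.5 gave a fall by a log2 difference of -1.20 ± 0.21 (adjusted p = 0.00224). Against E15.5, Fgf12 rose at E18.5 (log2 difference 2.85 ± 0.21, adjusted p = 5.49e-05). Fgf11 stayed between 0.563 and 1.21 FPKM in the 8 libraries, and its falls at E18.5 against E15.5 and against E13.5 were lost when a library was left out (adjusted p 0.0229 and 0.0488 with all libraries, up to 0.0974 and 0.208), the second in every such fit and the first without library 1 of E15.5 or either library of E18.5. Fgf14 did not reach 1 FPKM.

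The FGF receptors took the opposite course to the ligands at the first step. At E13.5 against E11.5, 4 of 5 rose and 1 fell, where 31.3% of all genes tested rose and 36.6% fell. Fgfr4 and Fgfrl1 also passed the rule of size as higher, as did 5.77% of all genes. At E15.5 against E13.5, 3 fell and 2 rose, on a background where 27.4% of genes tested fell, 27.9% rose, and 1.48% were lower and 3.64% higher by size. At E18.5 against E15.5, 3 rose and 1 fell, on a background of 38.5% and 29.4%, and by size 3 were higher where 6.29% of all genes were higher and 5.55% lower.

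**Figure D3:**
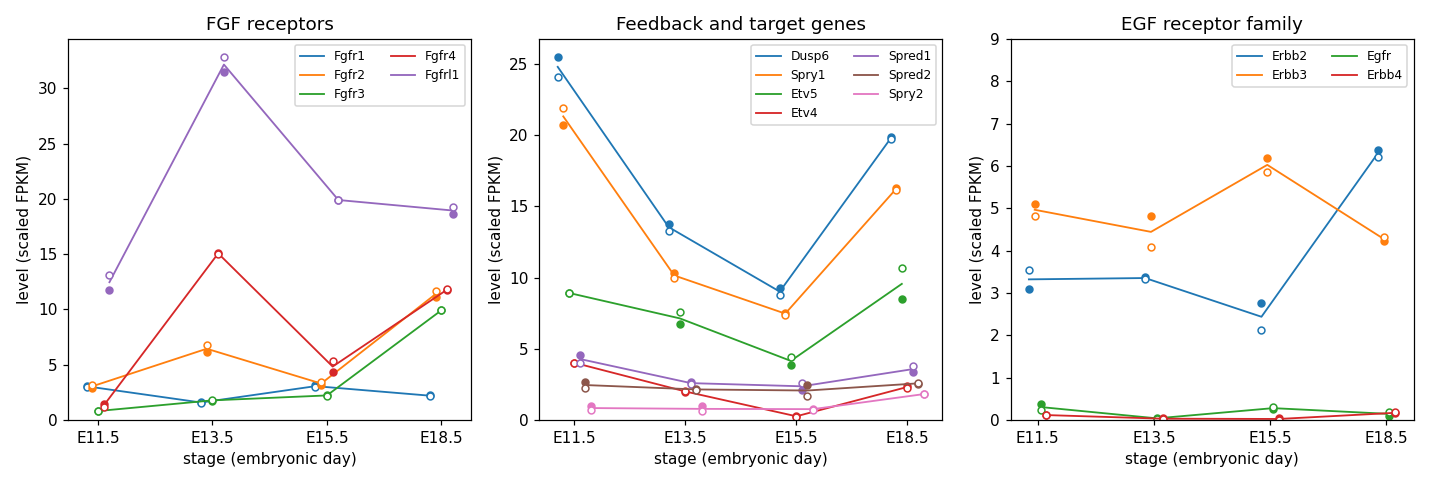
Level by stage, in scaled FPKM on linear axes, of the FGF receptors, the measured feedback and target genes and the EGF receptor family, with filled circles for library 1, open circles for library 2 and lines through their means. Fgfr4 and Fgfr2 dip at E15.5, Fgfr3 is highest at E18.5, and Dusp6, Spry1, Etv5 and Etv4 have their lowest level at E15.5.

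Fgfr4, the receptor that with beta-Klotho answers to endocrine FGFs in the adult liver, had the largest log2 difference of the receptors at the steps to E13.5 and to E15.5. Its levels were 1.42 and 1.18 FPKM at E11.5, 15.1 and 15 FPKM at E13.5, 4.36 and 5.29 FPKM at E15.5 and 11.7 and 11.8 FPKM at E18.5. Fgfr4 rose at E13.5 against E11.5, with a log2 difference of 3.44 ± 0.11 (SE) and an adjusted p of 2.08e-06. For Fgfr4, E15.5 against E13.5 gave a fall by a log2 difference of -1.63 ± 0.11 (adjusted p = 9.72e-05). Against E15.5, Fgfr4 rose at E18.5 (log2 difference 1.28 ± 0.11, adjusted p = 0.000122). The libraries of consecutive stages did not overlap. Over the 4 stages in order, Fgfr4 made up 15.9%, 60.6%, 36.1% and 33.4% of the summed level of Fgfr1 to Fgfr4. These shares rest on exon lengths of 3542 bases for Fgfr4 and 10328 bases for Fgfr2. At E13.5 Fgfr4 had fewer reads than Fgfr2 (1922 against 2388). The Fgfr4 gene lies at chr13:55152640-55168759 of mm10. The small difference of E18.5 against E13.5 (-0.35 ± 0.11, adjusted p = 0.0353) was lost without any 1 of the 4 libraries compared (adjusted p up to 0.118) and without the trend in limma's prior (0.0512).

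Fgfr2, the receptor of Fgf7 and Fgf10 in epithelia, also dipped at E15.5. It had 2.88 and 3.19 FPKM at E11.5, 6.14 and 6.74 FPKM at E13.5, 3.19 and 3.38 FPKM at E15.5 and 11.1 and 11.7 FPKM at E18.5. Fgfr2 rose at E13.5 against E11.5, with a log2 difference of 1.06 ± 0.08 (SE) and an adjusted p of 4.68e-05. For Fgfr2, E15.5 against E13.5 gave a fall by a log2 difference of -0.95 ± 0.08 (adjusted p = 0.000187). Against E15.5, Fgfr2 rose at E18.5 (log2 difference 1.76 ± 0.08, adjusted p = 9.11e-06). Its epithelial and mesenchymal splice forms cannot be told apart in gene-level values. Its annotated exons share 314 bases, 3.04% of their length, with Ctbp2 on the same strand (chr7:130162451-133123350 is the annotated span of Fgfr2).

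Fgfr3, a receptor best known for restraining bone growth, was higher in each later stage in the scaled values. It had 0.762 and 0.843 FPKM at E11.5, 1.73 and 1.8 FPKM at E13.5, 2.22 and 2.2 FPKM at E15.5 and 9.93 and 9.92 FPKM at E18.5. Fgfr3 rose at E13.5 against E11.5, with a log2 difference of 1.05 ± 0.08 (SE) and an adjusted p of 6.33e-05. For Fgfr3, E18.5 against E15.5 gave a rise by a log2 difference of 2.12 ± 0.08 (adjusted p = 6.32e-06). The step between them was small: at E15.5 against E13.5 the difference was 0.31 ± 0.08, adjusted p = 0.0205, and it turned to -0.29 (adjusted p = 0.0208) with each library scaled to the same total. Leaving out any library of those 2 stages ended that call as well, with an adjusted p of up to 0.0856. Fgfr3 was 28.1% of the sum of the 4 receptors at E18.5, against 9.81% at E11.5, and 13.9% of its exon length overlaps a gene on the opposite strand that stayed at or below 0.0431 FPKM.

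Fgfr1, a receptor common in mesenchyme and neural tissue, fell at the steps to E13.5 and to E18.5, where Fgfr2, Fgfr3 and Fgfr4 rose. It had 3.08 and 3 FPKM at E11.5, 1.66 and 1.49 FPKM at E13.5, 3.11 and 2.99 FPKM at E15.5 and 2.22 and 2.16 FPKM at E18.5. Against E11.5, Fgfr1 fell at E13.5 (log2 difference -0.91 ± 0.09, adjusted p = 0.000146). Fgfr1 rose at E15.5 against E13.5, with a log2 difference of 0.92 ± 0.09 (SE) and an adjusted p of 0.000307. For Fgfr1, E18.5 against E15.5 gave a fall by a log2 difference of -0.46 ± 0.09 (adjusted p = 0.00363). Its share of the receptor sum was 37.2%, 6.33%, 22.8% and 6.21% in stage order. Under scaling to the same total its highest stage was no longer E15.5, and the rise at E18.5 against E13.5 (0.46, adjusted p = 0.00463) shrank to 0.03 (adjusted p = 0.812).

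Fgfrl1, a receptor without a kinase domain, had the highest FPKM of the receptor genes in every stage. At E18.5 it had fewer reads than Fgfr2 (1350 against 3013). It had 11.8 and 13.2 FPKM at E11.5, 31.4 and 32.9 FPKM at E13.5, 19.9 and 19.9 FPKM at E15.5 and 18.6 and 19.3 FPKM at E18.5. Against E11.5, Fgfrl1 rose at E13.5 (log2 difference 1.36 ± 0.06, adjusted p = 5.5e-06). Fgfrl1 fell at E15.5 against E13.5, with a log2 difference of -0.69 ± 0.06 (SE) and an adjusted p of 0.000206. E18.5 and E15.5 did not differ beyond the library spread (-0.07 ± 0.06, adjusted p = 0.326). Frs2, the adaptor that couples the receptors to Ras, had 1.17 and 1.15 FPKM at E11.5, 1.31 and 1.35 FPKM at E13.5, 1.54 and 1.52 FPKM at E15.5 and 1.61 and 1.57 FPKM at E18.5. None of its 4 comparisons passed the test, with an adjusted p of 0.0827 at the lowest. Without the trend in limma's prior, 3 of them passed as higher in the later stage, and under scaling to the same total E15.5 was lower than E13.5 (-0.40, adjusted p = 0.0111).

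The measured feedback and target genes among the members were called in 1 direction at each step. At E13.5 against E11.5, 4 of the 7 measured genes fell and 0 rose, where 36.6% of all genes tested fell and 31.3% rose. At E15.5 against E13.5 again 4 fell and 0 rose, where 27.4% of all genes fell and 27.9% rose. At E18.5 against E15.5, 6 rose and 0 fell, where 38.5% of all genes rose and 29.4% fell. All 7 had their lowest level at E15.5 also with the FPKM as deposited and with each stage scaled to the same total. The latter says little, because with each library scaled so, 61.4% of all genes tested fell at E15.5 against E13.5 and 8.31% rose. In the scaling used here, Spred1, Spred2 and Spry2 did not pass the test in that step. The 7 genes were put on the list as known outputs of 1 pathway, and the list was chosen with earlier results of these data known. Of 10 other negative regulators of these pathways that were tested, 2 rose and 7 fell at E13.5 against E11.5. At E15.5 against E13.5, 2 of those rose and 3 fell, and at E18.5 against E15.5, 5 rose and 1 fell, beside the same shares of all genes.

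The markers of the pancreatic lineages also differed between these stages. The 8 acinar markers summed to 5.04 FPKM at E11.5, 4255 FPKM at E13.5, 97015 FPKM at E15.5 and 46764 FPKM at E18.5, with 7 of 8 at 1 FPKM or more at E13.5 and 8 of 8 later. The 10 endocrine markers summed to 492 FPKM at E11.5, 3564 FPKM at E13.5, 2664 FPKM at E15.5 and 29811 FPKM at E18.5, and all 10 reached 1 FPKM from E13.5 on. The sums of the 5 duct markers were 150 FPKM at E11.5, 4607 FPKM at E13.5, 2070 FPKM at E15.5 and 17409.6 FPKM at E18.5, most of it Spp1 from E13.5 on, with 4 of 5 at 1 FPKM or more in each stage. From E13.5 on, the acinar sum was thus highest at E15.5. The endocrine and duct sums were lowest there, as were the feedback genes, Fgfr2 and Fgfr4. Single markers differed. The duct sum followed Spp1 (4415 FPKM at E13.5 and 1741 FPKM at E15.5), while Krt19, Hes1 and Muc1 were higher at E15.5. The endocrine sum followed mainly Gcg (2400 and 1383 FPKM) and Chgb (816 and 162 FPKM). Neurog3, Neurod1, Insm1 and Chga were also lower at E15.5 than at E13.5, while Ins1, Ins2, Sst and Ppy were higher. The part of these lineages in the levels at E15.5 was not tested.

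Dusp6, the phosphatase that inactivates Erk1 and Erk2 in the cytoplasm, and Spry1, a Sprouty inhibitor of receptor signalling to Ras, had the highest levels of the group. Upstream sequences are shown for Dusp6, Spry1 and Spred1, the genes of this group that passed the test in 2 or more steps and have a RefSeq promoter (GRCm38.p6) lying outside the gene as GENCODE M21 annotates it. Each line holds the 250 bases before the start site, 5′ to 3′ on the gene's strand, and capitals mark CGGAAG or its reverse complement CTTCCG, a core sequence bound by ETS factors such as Etv4 and Etv5. The stretches are chr10:99262981-99263230 (plus strand) for Dusp6, chr3:37639697-37639946 (plus strand) for Spry1 and chr2:117120821-117121070 (plus strand) for Spred1.
Dusp6: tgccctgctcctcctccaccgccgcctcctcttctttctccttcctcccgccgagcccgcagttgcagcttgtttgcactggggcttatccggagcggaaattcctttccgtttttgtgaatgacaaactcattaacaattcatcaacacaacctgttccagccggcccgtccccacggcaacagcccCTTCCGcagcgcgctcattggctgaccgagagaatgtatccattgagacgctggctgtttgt
Spry1: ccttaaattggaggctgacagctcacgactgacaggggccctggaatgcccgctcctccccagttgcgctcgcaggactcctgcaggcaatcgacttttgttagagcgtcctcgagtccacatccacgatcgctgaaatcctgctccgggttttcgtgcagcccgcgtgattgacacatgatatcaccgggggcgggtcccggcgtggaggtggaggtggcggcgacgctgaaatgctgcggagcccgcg
Spred1: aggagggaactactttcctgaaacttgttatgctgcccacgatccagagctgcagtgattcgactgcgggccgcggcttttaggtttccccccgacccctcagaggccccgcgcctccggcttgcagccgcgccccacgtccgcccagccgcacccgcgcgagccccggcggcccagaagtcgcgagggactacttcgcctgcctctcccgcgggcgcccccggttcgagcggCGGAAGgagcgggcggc
RefSeq promoters were at hand for 6 of the 7 measured feedback genes and 36 of the 51 members. The 6-base sequence was found in 3 of those 6 genes, Dusp6, Spred1 and Spred2, and in 7 of the 24 measured members with a promoter. It was found in 13.6% of all 32851 promoters of the same length (4466), counting either strand. The first 2 counts are of genes with a match in any of their promoters, while the last is of single promoters, so they are not alike. A match is a string of letters and no evidence of binding.

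Dusp6 had 25.5 and 24.1 FPKM at E11.5, 13.8 and 13.3 FPKM at E13.5, 9.24 and 8.78 FPKM at E15.5 and 19.8 and 19.7 FPKM at E18.5. For Dusp6, E13.5 against E11.5 gave a fall by a log2 difference of -0.87 ± 0.05 (adjusted p = 1.29e-05). Against E13.5, Dusp6 fell at E15.5 (log2 difference -0.58 ± 0.05, adjusted p = 0.000167). Dusp6 rose at E18.5 against E15.5, with a log2 difference of 1.13 ± 0.05 (SE) and an adjusted p of 7.27e-06. The 2 libraries of each stage differed by less than any pair of consecutive stages, and E18.5 did not reach the level of E11.5. Spry1 had 20.7 and 21.9 FPKM at E11.5, 10.3 and 9.96 FPKM at E13.5, 7.53 and 7.4 FPKM at E15.5 and 16.3 and 16.2 FPKM at E18.5. For Spry1, E13.5 against E11.5 gave a fall by a log2 difference of -1.06 ± 0.04 (adjusted p = 4.59e-06). Against E13.5, Spry1 fell at E15.5 (log2 difference -0.44 ± 0.04, adjusted p = 0.000367). Spry1 rose at E18.5 against E15.5, with a log2 difference of 1.11 ± 0.04 (SE) and an adjusted p of 6.26e-06. The order of the stages was thus the same in both genes. With the FPKM as deposited, 4 members rather than 7 were higher by size at E18.5 against E15.5, and the 3 lost, Dusp6, Spry1 and Etv5, are all the feedback genes called by size in that step. Spry1 shares 24.4% of its exon length with a predicted gene on the opposite strand, which had at most 0.102 FPKM.

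Etv4 and Etv5, related ETS transcription factors downstream of FGF receptors, both dipped at E15.5, Etv4 far more. Etv4 had 3.99 and 4.03 FPKM at E11.5, 1.97 and 2.02 FPKM at E13.5, 0.275 and 0.231 FPKM at E15.5 and 2.41 and 2.22 FPKM at E18.5. For Etv4, E13.5 against E11.5 gave a fall by a log2 difference of -0.97 ± 0.11 (adjusted p = 0.000336). Against E13.5, Etv4 fell at E15.5 (log2 difference -2.57 ± 0.11, adjusted p = 2.32e-05). Etv4 rose at E18.5 against E15.5, with a log2 difference of 2.78 ± 0.11 (SE) and an adjusted p of 6.62e-06. On the scale of FPKM this is a level 9.15 times as high at E18.5 as at E15.5, yet under the 5 FPKM of the rule of size. Etv5 had 8.9 and 8.95 FPKM at E11.5, 6.72 and 7.55 FPKM at E13.5, 3.88 and 4.41 FPKM at E15.5 and 8.47 and 10.6 FPKM at E18.5. For Etv5, E15.5 against E13.5 gave a fall by a log2 difference of -0.77 ± 0.12 (adjusted p = 0.00249). Against E15.5, Etv5 rose at E18.5 (log2 difference 1.18 ± 0.12, adjusted p = 0.000252). At E13.5 against E11.5 Etv5 missed the threshold (-0.32 ± 0.12, adjusted p = 0.0558), and it passed as lower with each library scaled to the same total (adjusted p = 0.0147).

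Spred1, a Ras pathway inhibitor, had 4.56 and 3.99 FPKM at E11.5, 2.64 and 2.52 FPKM at E13.5, 2.11 and 2.62 FPKM at E15.5 and 3.36 and 3.77 FPKM at E18.5. Spred1 fell at E13.5 against E11.5, with a log2 difference of -0.70 ± 0.13 (SE) and an adjusted p of 0.00292. For Spred1, E18.5 against E15.5 gave a rise by a log2 difference of 0.58 ± 0.13 (adjusted p = 0.00707). Its step at E15.5 was not beyond the spread (-0.13 ± 0.13, adjusted p = 0.416). Spred2, its relative, had 2.63 and 2.26 FPKM at E11.5, 2.15 and 2.13 FPKM at E13.5, 2.42 and 1.71 FPKM at E15.5 and 2.53 and 2.61 FPKM at E18.5 and passed no comparison. Spry2, the Sprouty gene most studied in epithelia, had 0.941 and 0.723 FPKM at E11.5, 0.952 and 0.596 FPKM at E13.5, 0.781 and 0.73 FPKM at E15.5 and 1.83 and 1.8 FPKM at E18.5, and rose at E18.5 against E15.5 by 1.16 ± 0.23 (adjusted p = 0.00422). Spry3, Spry4 and Spred3 did not reach 1 FPKM in a stage, and the reads of Spry4 came out whole only with an inferred exon length. Spred3 and Spry4 came nearest, at 0.777 and 0.693 FPKM at E11.5. Their levels at E15.5, 0.204 and 0.141 FPKM, were also the lowest of their 4 stages. Spry3 was instead lowest at E18.5 (0.0449 FPKM, against 0.0563 FPKM at E15.5), on 5 and 6 reads.

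Of the EGF family ligands, Hbegf, a membrane-anchored ligand of Egfr and Erbb4 that is shed by proteases, was the highest from E13.5 on. It had 2.39 and 2.12 FPKM at E11.5, 3.22 and 3.97 FPKM at E13.5, 11.7 and 10.8 FPKM at E15.5 and 8.9 and 8.25 FPKM at E18.5. Against E11.5, Hbegf rose at E13.5 (log2 difference 0.64 ± 0.12, adjusted p = 0.00279). Hbegf rose at E15.5 against E13.5, with a log2 difference of 1.63 ± 0.12 (SE) and an adjusted p of 0.000108. In stage order, Hbegf made up 29.6%, 60.7%, 82.8% and 67.9% of the summed level of the 7 ligands. At E13.5 it had fewer reads than Tgfa (305 against 340), whose exon length was 6490 bases, against 2373 bases used for Hbegf. The slight fall at E18.5 against E15.5 (-0.39 ± 0.12, adjusted p = 0.0240) was lost without library 1 of E15.5 or either library of E18.5 (adjusted p up to 0.117) and under scaling to the same total (adjusted p = 0.148). Under that scaling Hbegf was not past the rule of size at E15.5 against E13.5, where no member was higher and 5 were lower. Its reads were whole with an exon length of 2373 bases, not the 4834 of GENCODE M21, so its FPKM is that of a shorter gene model.

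Nrg1, a ligand of Erbb3 and Erbb4 used in nerve and heart, was the leading EGF family ligand at E11.5 with 45.2% of the sum. It had 3.53 and 3.36 FPKM at E11.5, 0.126 and 0.132 FPKM at E13.5, 0.03 and 0.0606 FPKM at E15.5 and 0.0677 and 0.0832 FPKM at E18.5. For Nrg1, E13.5 against E11.5 gave a fall by a log2 difference of -3.95 ± 0.20 (adjusted p = 9.2e-06). This fall ran beside those of the neural and otic markers given above, whose part was not tested. The further fall at E15.5 (adjusted p = 0.0288) was lost without either library of E13.5 or library 1 of E15.5 (up to 0.0851). Egf had 1.19 and 1.09 FPKM at E11.5, 0.13 and 0.147 FPKM at E13.5, 0.399 and 0.469 FPKM at E15.5 and 0.428 and 0.541 FPKM at E18.5, highest at E11.5. Against E11.5, Egf fell at E13.5 (log2 difference -2.37 ± 0.18, adjusted p = 5.7e-05). Egf rose at E15.5 against E13.5, with a log2 difference of 1.16 ± 0.18 (SE) and an adjusted p of 0.00244. Btc, betacellulin, a ligand first found in an insulinoma line, had 0.0241 and 0.0618 FPKM at E11.5, 0.671 and 0.524 FPKM at E13.5, 0.567 and 0.853 FPKM at E15.5 and 1.78 and 1.71 FPKM at E18.5. For Btc, E13.5 against E11.5 gave a rise by a log2 difference of 2.29 ± 0.25 (adjusted p = 0.000257). Against E15.5, Btc rose at E18.5 (log2 difference 1.21 ± 0.25, adjusted p = 0.00517). Its E11.5 level rests on 7 reads. Tgfa had 0.74 and 0.663 FPKM at E11.5, 1.35 and 1.57 FPKM at E13.5, 1.09 and 1.13 FPKM at E15.5 and 1.32 and 1.36 FPKM at E18.5, and its only call was the rise at E13.5 against E11.5 (0.96 ± 0.13, adjusted p = 0.000729). Areg and Ereg did not reach 1 FPKM, and Areg was highest at E18.5 with 0.386 FPKM.

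The EGF receptor family was represented almost wholly by Erbb2 and Erbb3 in these libraries. Erbb2, the ligandless partner, had 3.1 and 3.54 FPKM at E11.5, 3.38 and 3.32 FPKM at E13.5, 2.76 and 2.12 FPKM at E15.5 and 6.38 and 6.2 FPKM at E18.5. Erbb2 rose at E18.5 against E15.5, with a log2 difference of 1.35 ± 0.13 (SE) and an adjusted p of 0.000186. Its step at E15.5 against E13.5 (-0.46 ± 0.13, adjusted p = 0.0253) was lost without either library of E13.5 or library 2 of E15.5 (up to 0.0956). Erbb3, the neuregulin receptor with a weak kinase, had 5.11 and 4.82 FPKM at E11.5, 4.81 and 4.07 FPKM at E13.5, 6.19 and 5.85 FPKM at E15.5 and 4.23 and 4.32 FPKM at E18.5. Erbb3 rose at E15.5 against E13.5 (0.44 ± 0.09, adjusted p = 0.00681), which under scaling to the same total turned to -0.18 (adjusted p = 0.117), and fell at E18.5 against E15.5 (-0.48 ± 0.09, adjusted p = 0.00318). Erbb2 and Erbb3 thus exchanged rank: Erbb2 was 57.9% of the family sum at E18.5, against 27.8% at E15.5, and Erbb3 was 39.3% at E18.5, against 68.8% at E15.5. From E11.5 to E18.5 Egfr stood at 0.304, 0.0365, 0.278 and 0.141 FPKM and Erbb4 at 0.114, 0.0284, 0.0220 and 0.168 FPKM, so neither reached the 1 FPKM asked of a measured gene.

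Fgfr1op and Fgfr1op2 were taken by the naming rule but encode a centrosome protein and a cytoplasmic protein named after fusions with Fgfr1, not receptors. Fgfr1op had 9.79 and 9.6 FPKM at E11.5, 6.92 and 7.93 FPKM at E13.5, 6.53 and 6.6 FPKM at E15.5 and 7.76 and 7.11 FPKM at E18.5, and Fgfr1op2 had 25.7 and 25.7 FPKM at E11.5, 24.9 and 23.3 FPKM at E13.5, 22 and 21.7 FPKM at E15.5 and 25 and 25.6 FPKM at E18.5. In the 4 comparisons made, neither gene differed by more than 1.31 times, while Fgfr1op averaged 6.56 FPKM at E15.5, against 9.70 FPKM at E11.5, a pair that was not tested. Fgfr1op fell at E13.5 against E11.5 (-0.38, adjusted p = 0.00443), and Fgfr1op2 rose at E18.5 against E15.5 (0.21 ± 0.04, adjusted p = 0.00452), a call kept without any 1 library. The call of Fgfr1op2 at E15.5 against E13.5 (-0.14, adjusted p = 0.0296) was lost without library 1 of E13.5 or either library of E15.5 (up to 0.125). Both of these genes, which are not receptors, had their lowest level at E15.5, as the measured feedback genes did.

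**Figure D4:**
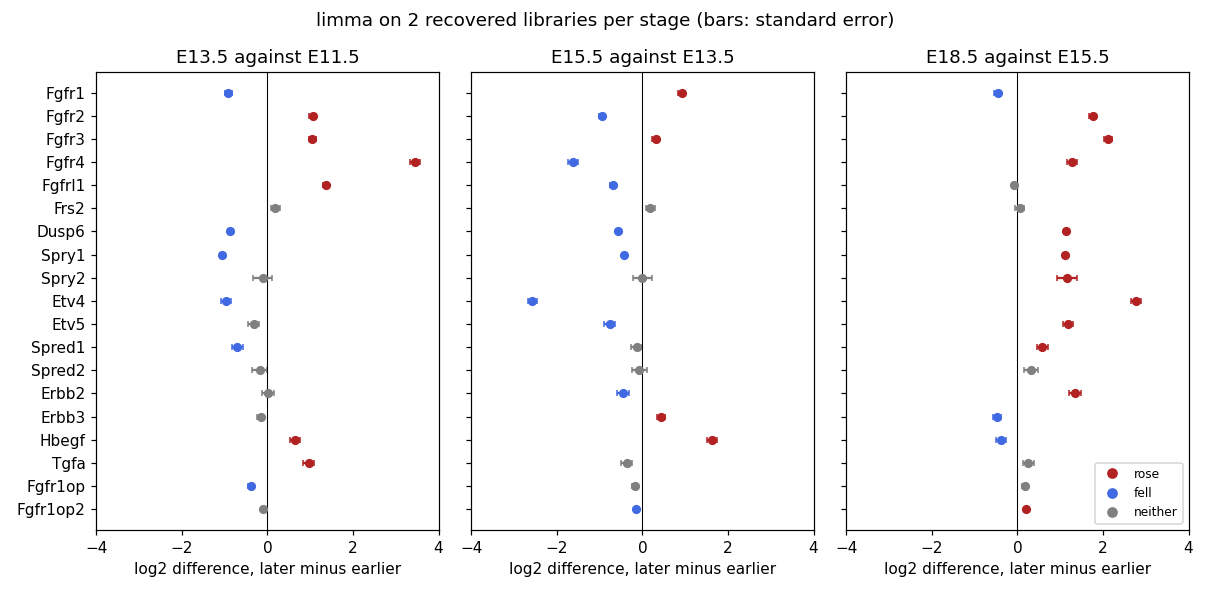
Log2 difference, later minus earlier stage, from limma on log2(FPKM + 0.1) of 2 recovered libraries per stage, with standard errors as bars, in red where the gene rose, blue where it fell and grey where the adjusted p was 0.05 or more. The 4 signalling receptors point to both sides in each panel, while the feedback genes Dusp6 to Spred2 lie at or left of 0 in the first 2 panels and right of 0 in the third.

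Counted over all 35 measured members, 7 rose and 19 fell at E13.5 against E11.5, and 2 were higher and 7 lower by size. The shares that fell and rose were 54.3% and 20.0%, against 36.6% and 31.3% of all genes tested. The falls include Fgf13, Nrg1, Egf and the ligands named above that reached 1 FPKM only at E11.5. The filter favoured a fall in such genes, among the members as among all genes. The median log2(FPKM + 1) difference was -0.43 over the members and -0.03 over all genes. At E15.5 against E13.5, 6 rose and 12 fell, where 27.9% of all genes rose and 27.4% fell. By size Hbegf was higher and Fgfr4 lower, beside 3.64% and 1.48% of all genes, with medians of -0.04 for members and 0.00 for all genes. At E18.5 against E15.5, 15 rose and 4 fell, where 38.5% of all genes rose and 29.4% fell. The rises include Fgf1, Fgf12, Btc and Spry2, which reached 1 FPKM only at E18.5, so the filter favoured their rise. The 7 members higher by size were Fgfr2, Fgfr3, Fgfr4, Dusp6, Etv5, Spry1 and Erbb2, of which Dusp6, Etv5 and Spry1 did not pass with the FPKM as deposited, with 0 lower, beside 6.29% and 5.55% of all genes, and medians of 0.20 and 0.04.

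The comparison of E18.5 with E13.5 shares its samples with the steps before it. In it, 16 members rose and 4 fell, on a background of 35.4% and 23.9%, and by size Fgfr3 and Hbegf were higher and none lower, where 5.34% of genes were higher and 3.0% lower. Fgfr3 differed by 2.42 ± 0.08 (adjusted p = 5.44e-06) and Hbegf by 1.24 ± 0.12 (adjusted p = 0.000205). With each library scaled to the same total, 11 rose and 9 fell. Over all genes, scaling each stage to the same total gave a median log2(FPKM + 1) difference of -0.24 in this comparison and of -0.14, -0.41 and 0.15 in the 3 steps, against 0.06, -0.03, 0.00 and 0.04 in the scaling used here. Dusp6 (0.54, adjusted p = 0.000142) and Spred1 (0.45, adjusted p = 0.0231) then no longer passed (adjusted p = 0.123 and 0.952), and Etv5 turned to -0.04 (adjusted p = 0.816, against 0.41 and 0.0274). The calls of Etv5 and Spred1 were also lost when single libraries were left out (adjusted p up to 0.134 and 0.114), for Etv5 either library of E11.5, library 1 of E13.5 or library 2 of E18.5, and for Spred1 either library of E13.5 or library 2 of E18.5. At E15.5 against E13.5 the same scaling gave 4 rises and 20 falls among the members, and 8.31% and 61.4% among all genes. At E18.5 against E15.5 it gave 18 rises and 2 falls, beside 45.7% and 22.3% of all genes.

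Other genes of these pathways were followed as a list of 76, of which 67 reached 1 FPKM and 61 could be tested. At E13.5 against E11.5, 18 rose and 34 fell (29.5% and 55.7%, against 31.3% and 36.6% of all genes tested). Between E15.5 and E13.5, 14 rose and 22 fell (23.0% and 36.1%, against 27.9% and 27.4% of all genes). Between E18.5 and E15.5, 31 rose and 18 fell (50.8% and 29.5%, against 38.5% and 29.4% of all genes). Scaled to the same total, the second of these splits became 4 and 49, beside 8.31% and 61.4% of all genes. At E18.5 against E13.5, 26 rose and 16 fell, beside 35.4% and 23.9% of all genes, and 10 and 33 under that scaling, beside 17.5% and 47.3%. Of the adaptors and kinases of the Ras pathway, 0 of 22 passed the rule of size in the first 2 steps. The background by size was 5.77% higher and 5.73% lower at the step to E13.5, and 3.64% and 1.48% at the step to E15.5. Beside shares this low, 0 of 22 says little about the group. At E18.5 against E15.5 Map2k1, a kinase of Erk1 and Erk2, was the 1 higher (30.9 FPKM, against 14.3 FPKM at E15.5). The background by size there was 6.29% higher and 5.55% lower. Of the 21 adaptors and kinases that could be tested, 3 rose and 13 fell at E13.5 against E11.5. At E15.5 against E13.5, 5 rose and 8 fell, and at E18.5 against E15.5, 9 rose and 8 fell.

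Among negative regulators, Errfi1, an inhibitor of Egfr and Erbb2, had 14.6 FPKM at E11.5, 34.3 FPKM at E13.5, 30.8 FPKM at E15.5 and 69.8 FPKM at E18.5. It rose at E13.5 (1.23 ± 0.07, adjusted p = 1.36e-05) and at E18.5 against E15.5 (1.18 ± 0.07, adjusted p = 2.11e-05). Dusp9, an Erk phosphatase, was at 22.9 FPKM at E13.5, against 4.65 FPKM at E11.5, and at 1.68 FPKM at E18.5, against 12.2 FPKM at E15.5. Dusp5, its nuclear relative, was at 22.0 FPKM at E18.5, against 7.48 FPKM at E15.5, and both genes passed the test in these steps. Socs2, a cytokine signalling inhibitor, had 0.228 FPKM at E13.5, against 20.1 FPKM at E11.5, and Dusp4 had 3.44 FPKM at E13.5, against 8.81 FPKM at E11.5. Lrig1, which promotes loss of EGF receptors from the surface, had 4.82, 0.827, 3.31 and 2.90 FPKM over the 4 stages, and Il17rd, an FGF receptor inhibitor, 1.41, 0.231, 0.307 and 0.291 FPKM. Both fell at E13.5 against E11.5 (adjusted p = 2.82e-05 and 0.000156).

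Of the coreceptors, Klb, the beta-Klotho partner of Fgfr4, moved in the directions of Fgfr4. It had 0.242 FPKM at E11.5, 2.48 FPKM at E13.5, 0.927 FPKM at E15.5 and 1.72 FPKM at E18.5. It rose at E13.5 (2.92 ± 0.16, adjusted p = 1.47e-05), fell at E15.5 (-1.33 ± 0.16, adjusted p = 0.000834) and rose at E18.5 against E15.5 (0.83 ± 0.16, adjusted p = 0.00442). The heparan sulphate proteoglycan Sdc4 stood at 16.7 FPKM at E13.5, against 2.94 FPKM at E11.5, and Flrt2, a membrane protein that binds FGF receptors, at 15.4 FPKM at E13.5, against 3.16 FPKM at E11.5. Sulf1, which trims heparan sulphate, had 0.261 FPKM at E13.5, against 9.98 FPKM at E11.5, and Flrt3 had 2.02 FPKM, against 10.3 FPKM. At E18.5 against E15.5 the proteoglycans Gpc4 and Sdc2 were higher (17.6 FPKM, against 4.69 FPKM, and 17.1 FPKM, against 7.22 FPKM), Flrt2 was lower (1.26 FPKM, against 14.4 FPKM) and Gpc3 was lower by size (75.5 FPKM, against 221 FPKM), with no test because its reads could not be split.

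Of the 8 general growth factor targets on the list, 3 were higher and 1 lower by size at E15.5 against E13.5, where 3.64% of all genes were higher and 1.48% lower. Fos, an immediate early gene, had 629 FPKM at E15.5, against 165 FPKM at E13.5, and Ier3, another, had 40.6 FPKM at E15.5, against 10.8 FPKM at E13.5, both without a test. Ier3 was higher again at E18.5 (109 FPKM, against 40.6 FPKM at E15.5). Myc was at 57.0 FPKM at E13.5, against 10.1 FPKM at E11.5, and at 17.9 FPKM at E18.5, against 50.3 FPKM at E15.5. Egr1, an immediate early gene without a test, was at 196 FPKM at E13.5, against 66.9 FPKM at E11.5. Ccnd1, cyclin D1, fell to 15.1 FPKM at E15.5, against 31.9 FPKM at E13.5 (-1.07 ± 0.04, adjusted p = 1.95e-05), and rose to 41.1 FPKM at E18.5, against 15.1 FPKM at E15.5. Phlda1 was at 9.01 FPKM at E18.5, against 27.4 FPKM at E15.5, and Adam10, a protease that sheds EGF family ligands, at 28.9 FPKM at E15.5, against 12.9 FPKM at E13.5, and at 7.81 FPKM at E18.5, against 28.9 FPKM at E15.5.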

How the data were processed

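Total RNA of 4 fetal pancreas samples, 1 per stage, had been sequenced. The submitters' processing notes name HISAT2 2.0.5 and mm10, and no source used here names a counting tool or annotation. The authors deposited 1 table per stage with FPKM of each Ensembl gene ID, which the column names call averages, per the file headers. GENCODE M21, of the same build, gave symbols, positions and exon lengths.

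Scaling factors (0.962 to 1.028) were medians of ratios over the 9884 genes that no stage had below 1 FPKM. Deposited means times exon length were then split into whole reads of 2 libraries per stage. The tolerance (0.85 of the last digit) and a length inferred from the values for 710 genes, 3 of them members, were chosen after seeing the data. The split was tested on simulated data. Library spread was 1.28 to 1.43 times the counting error over genes with 20 reads or more.

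Stages were tested over these libraries in limma 3.58.1 under R 4.3.3 (1 fit of all 8, trend in the prior, log2 of scaled FPKM plus 0.1, Benjamini-Hochberg over 13807 genes at 1 FPKM or more in a stage that could be split). Ratios of low counts carry exact conditional 95% intervals, which cover counting error only, and 0 reads were taken as 3. Alternatives were other scalings, pseudocounts, filters, folds, a prior without trend and leaving out each library. The members, pathway list and markers were chosen with earlier results of these data known. Every measured member is described. Of the other pathway genes, up to 2 per subgroup, direction and comparison past the rule of size are named, plus Il17rd, Klb, Errfi1 and Lrig1. Those of E18.5 against E13.5 are given as counts. Of the marker lists, genes among the 3 highest at E11.5 are named, or genes that were exceptions or main parts of a sum. Twist1 was named after its values were seen.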

Additional observations from a re-analysis of the deposited data

How the results depend on the processing

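Of the 35 measured members, 34 kept their highest stage with the FPKM as deposited (the exception was Frs2) and 30 with each stage scaled to the same total (the exceptions were Erbb3, Etv5, Fgfr1, Frs2 and Spred2). By size, 9 members passed at E13.5 against E11.5, and 14 with no minimum level. At E15.5 against E13.5 there were 2, and 5 each under scaling to the same total and at 1.5-fold. At E18.5 against E15.5 there were 7, with 4 for the FPKM as deposited and 11 each with a higher level at 2 FPKM or more and with no minimum. At E18.5 against E13.5 there were 2, with 1 for the FPKM as deposited, 5 each at 2 FPKM or more and with no minimum, and 6 at 1.5-fold. The limma counts were 26, 18, 19 and 20 in the same order, and asking for 2-fold as well left 6 at E15.5 against E13.5 and 10 at E18.5 against E13.5. Leaving out 1 library gave 26 to 28, 13 to 18, 17 to 20 and 15 to 19. Where this left a stage with 1 library, that library is assumed to vary like the others. Over the 83 calls of members, 13 were lost in at least 1 such fit and 0 changed sign. Under scaling to the same total, 103 of 140 single differences kept direction and call, 15 gained and 6 lost a call, 13 that were no call changed sign, and 3 calls changed sign: Fgfr3 (-0.287) at E15.5 against E13.5, which passed in the other direction, and Erbb3 (-0.180) at E15.5 against E13.5 and Etv5 (-0.037) at E18.5 against E13.5, which no longer passed. A pseudocount of 1 kept 136 and a prior without trend 132 of the 140. Depth limits the ligands after E11.5, several of which rest on 0 to 8 reads. No paired analysis was possible because library numbers do not link stages and each stage has 1 labelled sample.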
